A study of Lentinus tigrinus with 27 samples.

Results

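In the wood-decay mushroom Lentinus tigrinus, 190 of 15581 gene models were far more abundant in vegetative mycelium than in any stage or tissue of fruiting. They were chosen from the measurements. For each gene, the mean of log2(TPM + 1) was taken over the 3 libraries of each group, where TPM, a measure of transcript abundance, is the read count divided by gene length and scaled to a fixed sum per library. A gene was a member if its mean in vegetative mycelium lay at least 2 log2 units (4-fold) above the mean of each of the other 8 groups and if its TPM was at least 5 in every mycelium library. The height of the mycelium over the other groups is therefore a description of the choice, and no test of it is read as a result.

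Vegetative mycelium is the network of hyphae by which a white-rot fungus grows through wood. Its hyphae secrete enzymes that break down cellulose, hemicellulose and lignin, take up the released sugars and carry them to the growing front. Fruiting begins when hyphae aggregate into a primordium, whose cells then differentiate into a stipe, a cap and the gills (lamellae) that bear spores, and this tissue is fed by the mycelium in the substrate. The files do not pair the gene identifiers with names, and none of the 15665 genes of the reference table at hand carries them, so no member is given a function and identifiers are printed for a few members only.

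All 27 libraries were made from polyA RNA of strain RLP-9953-sp, in 9 groups of 3 labelled as biological replicates. VM is vegetative mycelium. The labels name a malt extract agar for its upkeep, and they give neither the medium nor the age nor the light of the harvested VM samples. Fruiting cultures grew on wheat bran and aspen sawdust, for 21 days in the dark at 30 °C and then at 25 °C with 12 h of light a day. P1 is the stage 1 primordium, a white stalk 5 to 20 mm tall without a cap initial. P2_C and P2_S are the cap and stipe of the stage 2 primordium, at 15 to 25 mm, marked by a brown cap initial. YFB_C and YFB_S are the cap and stipe of the young fruiting body, which stood 30 to 40 mm tall with gills barely visible. FB_C, FB_S and FB_L are the cap, stipe and lamellae of the fruiting body, 50 to 70 mm tall with a flattened cap. The identity of the tissues could not be checked against marker genes, because no identifier has a name. In bulk tissue, fewer cells of a type and less RNA per cell cannot be told apart.

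The libraries held between 10.84 M and 31.82 M reads assigned to genes and came from 6 flowcells. The fruiting libraries FB_C replicate 2 and FB_L replicate 1 stood apart, and they were sequenced on the same flowcell as VM replicates 1 and 2. On the first principal component of the 13379 tested genes that are not members (28.4% of the variance), the VM libraries scored from 63.3 to 92.6, FB_C replicate 2 scored 60.9 and FB_L replicate 1 scored 42.8. The other 22 fruiting libraries scored from -58.4 to 24.4. Counts of called members in comparisons among fruiting groups that use FB_C or FB_L are given with and without them. Without both, the rule chose 214 genes, 184 of them members.

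The 190 genes, 1.22% of all genes, made up 5.95%, 4.22% and 4.85% of the total TPM in VM replicates 1, 2 and 3 (mean 5.00% ± 0.877, SD, n = 3). The lowest fruiting group was YFB_C with 0.155% ± 0.0426, followed by P2_S with 0.172% ± 0.0304, FB_S with 0.186% ± 0.10 and YFB_S with 0.208% ± 0.0176 (SD, n = 3 each). P1 held 0.256% ± 0.0285 and P2_C 0.262% ± 0.0389 (SD, n = 3 each). Neighbours in this order differed by less than the larger of their SDs, except YFB_S and P1, whose libraries did not overlap. The fruiting body cap and lamellae were the most uneven groups. FB_C held 0.286%, 0.934% and 0.689% in replicates 1, 2 and 3, and FB_L held 0.883%, 0.414% and 0.175%. The lowest library of FB_L lay within the range of the stipe and young cap libraries, while its highest came close to FB_C replicate 2. Without FB_C replicate 2 and FB_L replicate 1, the means of the 2 libraries left were 0.488% in FB_C and 0.294% in FB_L.

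**Figure D1:**
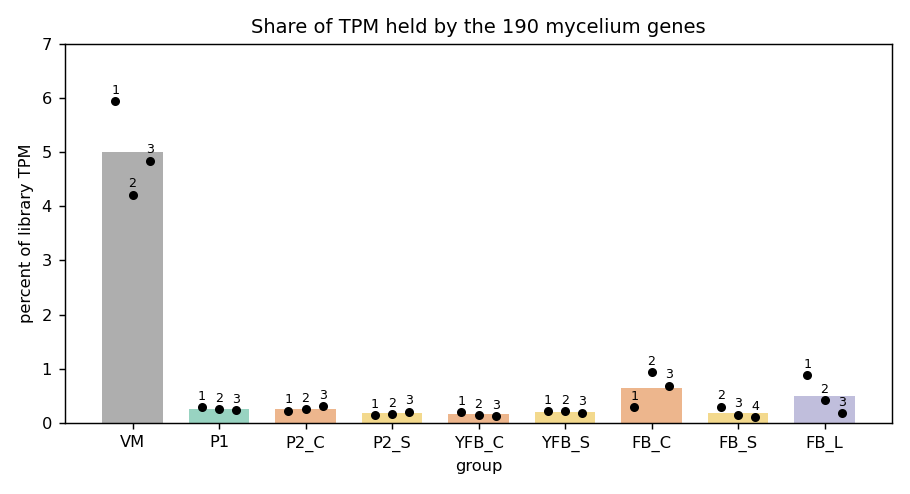
Percent of each library's total TPM held by the 190 genes, by group. Bars are means of 3 libraries, points are libraries and small figures are replicate numbers; VM lies from 4.22% to 5.95%, and FB_C replicate 2 is the highest fruiting library at 0.934%.

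A few genes carried much of this total. The 10 members with the highest mean TPM in VM held 40.3% of the members' summed TPM there. The most abundant, Lenti6_1_574529, measured 15851, 3036 and 3804.5 TPM in VM replicates 1, 2 and 3, which was 26.6%, 7.20% and 7.85% of the members' sum. It was far from absent in fruiting tissue, with 593, 3736 and 1063 TPM in FB_C and 2817, 246 and 7.44 TPM in FB_L, so that FB_C replicate 2 exceeded VM replicate 2. The next, Lenti6_1_513005, measured 4423, 877 and 1115 TPM in VM and from 3.36 to 278 TPM (median 31.1) in the 24 fruiting libraries, with no overlap. Without these 2 genes the share in VM was 4.03% ± 0.280 and that in P2_C was 0.200% ± 0.0168 (SD, n = 3 each). Across members, mean TPM in VM ran from 10.2 to 7564 with a median of 93.8. In VM, 91 members reached a mean of 100 TPM, 11 reached 1000 and 12 stayed under 20.

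The difference between VM and the highest fruiting group had a median of 2.58 log2 units over the members and a maximum of 7.73, with 65 members at 3 or more, 23 at 4 or more, 6 at 5 or more and 1 at 6 or more. That largest difference belonged to Lenti6_1_580031, which measured 168, 394 and 1358 TPM in VM replicates 1, 2 and 3 and between 0.150 and 2.07 TPM (median 0.607) in the 24 fruiting libraries. Its lowest VM library was thus far above every fruiting library. Lenti6_1_571130 had the second largest difference, 5.64, with 290, 100 and 195 TPM in VM and from 0.404 to 3.57 TPM (median 1.86) in fruiting libraries. Both genes were near the bottom of the scale in all fruiting tissues. At the other end, the members just inside the threshold were Lenti6_1_32445 and Lenti6_1_576203, each with a difference of 2.003. The genes just outside it were Lenti6_1_596982 at 1.997 and Lenti6_1_533985 at 1.993. There was no step at this threshold, since 23 members lay from 2 to 2.1 and 24 genes with at least 5 TPM in every VM library lay from 1.9 to 2. A further 5 genes passed the difference but fell under 5 TPM in a VM library.

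Members were lowered to different levels in fruiting tissue, and none was silent in every fruiting library. Of the 190, 27 had at least 5 TPM in every fruiting library, 82 had a median over the fruiting libraries of at least 5 TPM, and 31 stayed under 5 TPM in all of them. No member stayed under 1 TPM in all 24, and 3 had no read in at least 1 of them. In 165 members every VM library was above all 24 fruiting libraries, a pattern found in 5.8% of all genes. Nothing is read from that contrast, which the choice used. In the other 25 members at least 1 fruiting library reached the lowest VM library, so "high only in mycelium" does not hold for them library by library. The highest fruiting group of a member was most often FB_L (55 members), P1 (45), FB_C (33) or P2_C (27), less often YFB_S (14), FB_S (10) or YFB_C (5), and P2_S once (1). Without the 2 libraries that stood apart, P1 was highest in 51 members, P2_C in 37, FB_C in 36 and FB_L in 35.

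**Figure D2:**
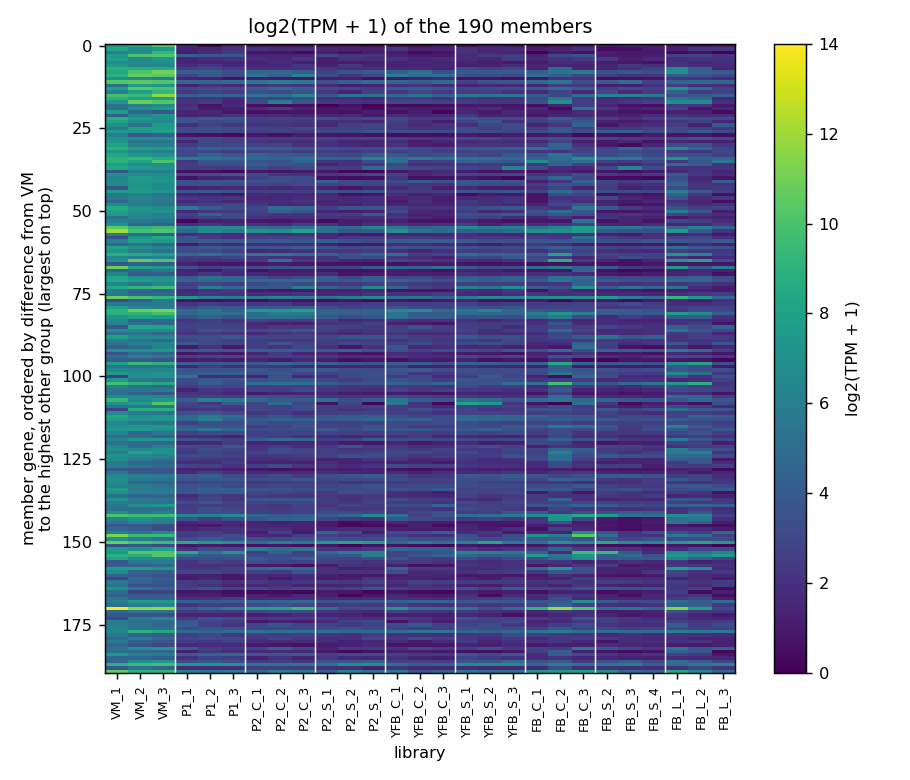
log2(TPM + 1) of the 190 members (rows, ordered by the difference between VM and the highest other group, largest on top) in the 27 libraries (columns). The 3 VM columns are brighter than the rest in every row on average, and FB_C replicate 2 and FB_L replicate 1 are brighter than most fruiting libraries.

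In the edgeR quasi-likelihood fit, 163 of 190 members met an adjusted p under 0.05 and a 2-fold difference in VM against all 8 fruiting groups, as did 3% of the 13569 genes tested. The choice of members fixed these contrasts, so the count is given only to show how many members the spread between libraries left uncalled, and nothing else is read from it. Of the 27 that missed at least 1 contrast, 21 missed only those with FB_C or FB_L.

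The libraries that stood apart carried part of the mycelium level of many members. Per member, TPM in FB_C replicate 2 was at the median 9.62% of the VM mean, with 5th and 95th percentiles of 0.836% and 41.8%. In FB_L replicate 1 the median was 9.50%, with 1.28% and 42.2% at those percentiles. The members were not raised in equal proportion. In FB_C replicate 2, 32 members reached 25% of the VM mean and 12 stayed under 1%, and in FB_L replicate 1 these counts were 36 and 8. The other libraries of these groups had medians of 4.87% (FB_C replicate 1), 7.58% (FB_C replicate 3), 7.34% (FB_L replicate 2) and 4.14% (FB_L replicate 3). FB_C replicate 2 was the highest fruiting library for 40 members, FB_L replicate 1 for 39 and FB_C replicate 3 for 25. What set these libraries apart was not tested. Within their shared flowcell, the mean of VM replicates 1 and 2 was set against the higher of FB_C replicate 2 and FB_L replicate 1. It was above that value in 187 of 190 members, by a median of 2.5 log2 units, and by at least 2 in 129. The flowcell of VM replicate 3 also held P1, P2_C and FB_C libraries. There VM was above the highest of these in 187 members, by a median of 2.45, and by at least 2 in 117. These libraries also entered the choice of members, which sets most of both counts.

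The VM libraries differed among themselves in many of these genes. Since the choice used the VM values and a high VM mean can come from 1 high library, the spread is a description and no test. The SD of log2 (TPM + 1) over the 3 VM libraries had a median of 0.70 over the members and of 0.37 over the 9969 genes with at least 5 TPM in every VM library. The 3 libraries lay within 2-fold of each other in 31.6% of members and in 71.8% of those 9969 genes, and 51 members were over 4-fold apart. In the members, VM replicate 1 was the library least like the others. Pearson's r of log2 values across the 190 members, which are not independent replicates, was 0.943 between replicates 2 and 3, but 0.666 between 1 and 2 and 0.624 between 1 and 3. Over the 9969 genes these values were 0.936, 0.912 and 0.835. The median absolute log2 difference over members was 0.41 between replicates 2 and 3, 0.98 between 1 and 2 and 1.17 between 1 and 3, and over the 9969 genes it was 0.38, 0.35 and 0.59. Replicates 1 and 2 shared a flowcell and replicate 3 was on another, and the part of the flowcell in these differences was not tested.

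The departures of VM replicate 1 went both ways. It was the highest VM library in 108 members and the lowest in 64. In 8 members it was at least 4-fold above both others, against 0.351% of the 9969 genes, and in 18 it was at least 4-fold below both, against 1.01%. Lenti6_1_573862 had the widest spread, with 5.81, 429 and 441 TPM in VM replicates 1, 2 and 3. Its VM replicate 1 lay inside the range of the fruiting libraries (2.71 to 33.2 TPM, median 5.87), and its membership rests on the other 2 libraries. Lenti6_1_590209 was alike, with 5.01, 146 and 149 TPM in VM and from 0.327 to 44.2 TPM (median 4.78) in fruiting libraries. At the steady end, Lenti6_1_607635 measured 37.4, 34.8 and 35.1 TPM in VM, and Lenti6_1_614596 measured 84.5, 75.7 and 80.6 TPM. Their fruiting libraries ran from 0.824 to 14.7 TPM and from 6.94 to 16.3 TPM, below every VM library in both genes.

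**Figure D3:**
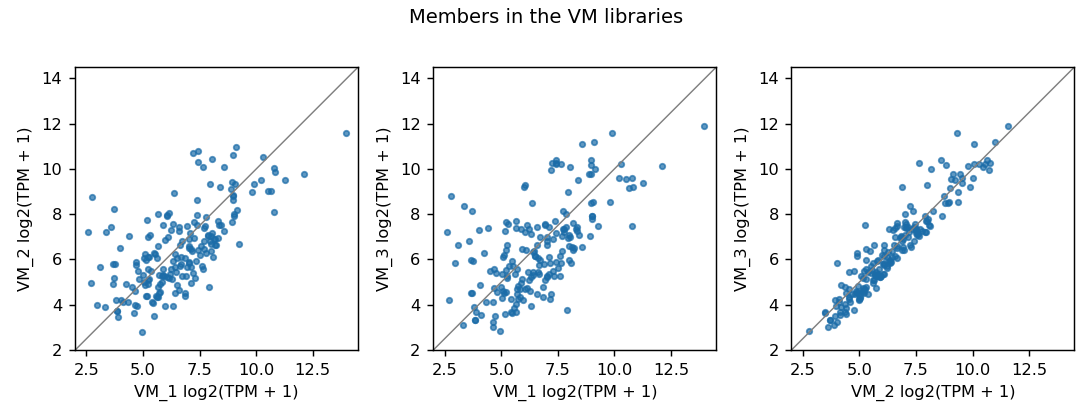
log2(TPM + 1) of the 190 members in each pair of VM libraries, with the line of equality. Replicates 2 and 3 lie close to the line (r = 0.943), and replicate 1 scatters on both sides of it against either of them (r = 0.666 and 0.624).

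Choosing genes with 1 VM library left out gave the same measure in a library that the choice had not used. With VM replicate 1 left out, the rule chose 202 genes, of which 119 (58.9%) lay at least 2 log2 units above every fruiting group mean in that library, against 2.23% of all genes. With replicate 2 left out the values were 138 of 198 (69.7%, background 1.39%), and with replicate 3 left out 120 of 215 (55.8%, background 1.33%). The left-out library was above all 24 fruiting libraries in 142, 183 and 196 of these genes. In VM replicate 1 the lowest of them lay 3.4 log2 units under the highest fruiting group, and 11 were under 5 TPM. The fruiting libraries were the same in the choice and in the check, so the low fruiting side of each difference was set by the choice. The backgrounds are over all genes, not over genes equally low in fruiting. No share of all genes was counted beside the 142, 183 and 196.

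The members were not at 1 common low level during fruiting. An edgeR quasi-likelihood F test compared the 8 fruiting groups and no VM library, though the VM libraries entered its estimate of spread. It called 80 of 190 members (42.1%) at an adjusted p under 0.05 with at least a 4-fold range of group means, against 17.5% of all genes tested. The fitted range of group means had a median of 2.07 log2 units in members and 1.19 over all genes. Of the 80, 27 were highest in FB_L, 20 in FB_C, 14 in P1 and 8 in P2_C, while 38 were lowest in FB_S and 15 in YFB_C. No called member was highest in P2_S. With the flowcell as a covariate 41 members were called (background 14.6%), with limma-voom 50 (background 15.3%), and without FB_C replicate 2 and FB_L replicate 1 together 67 (background 17.3%). Without these 2 libraries, the group means of the 80 were highest in FB_C for 21, in P1 for 17, in FB_L for 16 and in P2_C for 14. The rule capped every fruiting group mean at 2 log2 units below VM but did not order the groups.

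Between the young and the mature cap, many members rose and 1 fell. In FB_C against YFB_C, 64 of 190 members were higher (33.7%, background 10.6%) and 1 was lower (background 5.7%; 16.3% in either direction), by the edgeR test with Benjamini-Hochberg adjustment. The median log2 difference was 1.06 over all 190 members and 0.11 over all genes, and 164 members were above 0 (all genes, 55.7%). The 64 had a median difference of 2.35, from 1.01 to 7.57, and their mean in FB_C stayed between 0.738% and 60.3% of their mean in VM, with a median of 13.5%. They were not equally high in the 3 caps. The highest FB_C library was replicate 2 in 44 of them, replicate 3 in 15 and replicate 1 in 5. In 28 every FB_C library was above every YFB_C library. The share of all genes with that pattern was not counted, so nothing is read from the 28. FB_C replicate 1 was above all YFB_C libraries in 60 of 190 members (17.4% of all genes), replicate 2 in 126 (35.3%) and replicate 3 in 96 (23.3%).

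This count rested on a few libraries and on the flowcells. Without FB_C replicate 2 it was 30 higher and 2 lower (15.8% higher, background 5.76%), with a median difference of 0.73 and 154 members above 0; without that library and FB_L replicate 1 together, 35 were higher (18.4%, background 6.41%). Without YFB_C replicate 2, or without YFB_C replicate 3, 23 were higher (12.1%, background 5.16% and 5.29%). No flowcell held an FB_C library together with a YFB_C library. With the flowcell as a covariate 4 members were higher and 0 lower, a share of 2.11% that is near the background of 1.52%, while the median difference was 0.65 and 153 members were above 0. Fitted on the 6 libraries alone, 9 were higher (4.74%, background 2.61%) and 1 lower.

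The largest rise was in Lenti6_1_584306, which measured 5.25, 2.77 and 2.34 TPM in the young cap and 147, 59.0 and 1381 TPM in the mature cap, replicates 1, 2 and 3 in each. The caps did not overlap, as in every gene named for a rise or fall, because only called members without overlap were picked. FB_C replicate 3 lay within the VM range (2446, 739 and 656 TPM). The log2 difference was 7.57 ± 1.24 (SE, edgeR adjusted p = 0.000802), and 5.23 without FB_C replicate 3 (adjusted p = 0.00239). Lenti6_1_574529, the most abundant member in VM, measured 189, 35.1 and 32.9 TPM in the young cap and the values given above in the mature cap, again without overlap. Its difference was 4.68 ± 1.30 (SE, edgeR adjusted p = 0.0149). The call was lost without YFB_C replicate 2, YFB_C replicate 3 or FB_C replicate 2 (differences of 4.32, 4.29 and 3.62) and with the flowcell as a covariate (3.22, adjusted p = 0.186), and the difference was 5.96 without YFB_C replicate 1. The 1 member that fell was Lenti6_1_574942, with 95.6, 124 and 27.5 TPM in the young cap and 12.3, 11 and 7.58 TPM in the mature cap (-2.70 ± 0.558, edgeR adjusted p = 0.00331; 0.0676 with the flowcell as a covariate). In VM it measured 555, 2020 and 2328 TPM, and its highest fruiting values were in P2_C, with 188, 168 and 256 TPM.

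**Figure D4:**
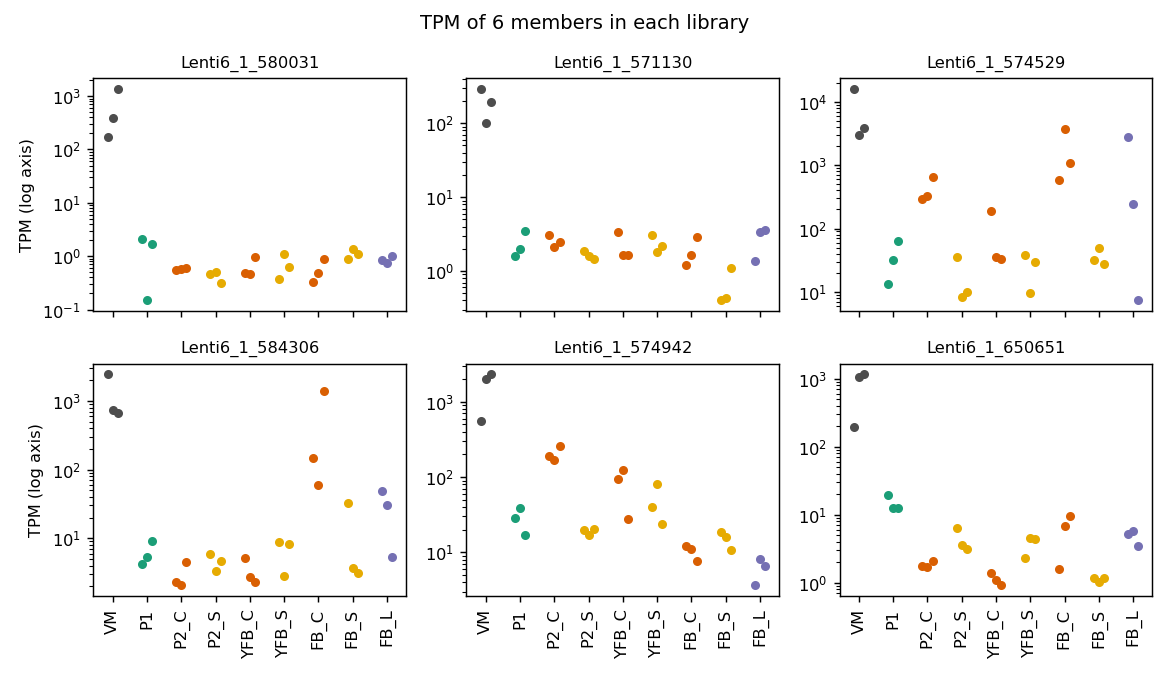
TPM (log axis) of 6 members in each library, by group, 3 points a group. Lenti6_1_580031 and Lenti6_1_571130 are near 1 TPM in all fruiting groups, Lenti6_1_584306 and Lenti6_1_574529 rise in FB_C, Lenti6_1_574942 is highest among fruiting groups in P2_C, and Lenti6_1_650651 in P1.

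The mature stipe did not share this rise. In FB_S against YFB_S, 1 member was higher (background 3.04%) and 12 were lower (6.32%, background 5.9%), with a median log2 difference of -0.36 over members and -0.05 over all genes. In either direction, 6.84% of members and 8.93% of all genes were called. The member that rose was Lenti6_1_507427, from 8.35, 8.74 and 6.13 TPM in YFB_S to 17.5, 18.2 and 8.80 TPM in FB_S replicates 2, 3 and 4 (1.13 ± 0.330, edgeR adjusted p = 0.0272). Among the called members without overlap, the largest falls were in Lenti6_1_606149 and Lenti6_1_376881. Lenti6_1_606149 went from 5.57, 11.6 and 2.77 to 1.47, 0.989 and 1.47 TPM (-2.13 ± 0.615, adjusted p = 0.0252). Lenti6_1_376881 went from 9.29, 8.82 and 15.4 to 2.44, 3.27 and 2.14 TPM (-1.94 ± 0.520, adjusted p = 0.0177). These calls were fragile. That of Lenti6_1_507427 was lost without any library but FB_S replicate 4, that of Lenti6_1_606149 without any but YFB_S replicate 3 (-1.42 without YFB_S replicate 2), and that of Lenti6_1_376881 without YFB_S replicate 3 or any FB_S library. In place of 13 members, 2 were called without FB_S replicate 3, 3 without YFB_S replicate 1, 5 without FB_S replicate 2, 6 without FB_S replicate 4 and 7 without YFB_S replicate 2 or 3, each time at most 3.68% of members beside at least 3.72% of all genes. With the flowcell as a covariate 1 was called (0.526%, background 5.21%), without FB_C replicate 2 and FB_L replicate 1 together 20 (10.5%, background 10.7%), and on the 6 libraries alone 28 (14.7%, background 11.7%).

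The difference between cap and stipe maturation was tested as an interaction, a test added after the data had been seen. In 59 members (31.1%, background 16.2%) the log2 change from young to mature was higher in the cap than in the stipe, and in 0 it was lower (background 11.1%; 27.3% in either direction). By limma-voom 36 were higher (18.9%, background 13.9%). At an unadjusted p under 0.05, 46.3% of members and 42.5% of all genes differed in either direction. The median difference of the changes was 1.51 over members and 0.19 over all genes, and 163 members were above 0. Without FB_C replicate 2, 40 were higher (21.1%, background 10.9%), and without that library and FB_L replicate 1 together 44 (23.2%, background 11.4%). With the flowcell as a covariate 12 were higher and 1 lower, a share of 6.32% beside 4.72% of all genes.

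Within the mature fruiting body the cap was also above the stipe. In FB_C against FB_S, 46 members were higher (24.2%, background 8.88%) and 4 lower (2.11%, background 3.63%; 12.5% in either direction), with a median log2 difference of 0.84 (all genes, 0.04) and 151 members above 0. Among the called members without overlap, Lenti6_1_383912 had the largest difference, with 10.7, 456 and 4.54 TPM in FB_C and 1.59, 0.571 and 1.59 TPM in FB_S. This difference was 6.70 ± 1.54 (SE, edgeR adjusted p = 0.00605). That value came from 1 library, since it was 2.40 and was not called without FB_C replicate 2 (adjusted p = 0.208). Lenti6_1_574970 measured 3.54, 158 and 7.11 TPM in FB_C and 0.942, 0.460 and 0.856 TPM in FB_S, a difference of 5.95 ± 1.14 (adjusted p = 0.00165) that was 2.64 without FB_C replicate 2 (adjusted p = 0.0359). Its call was lost with the flowcell as a covariate (4.19, adjusted p = 0.236) and on the 6 libraries alone (adjusted p = 0.0824). In both genes the groups did not overlap, as their choice required, but FB_C replicate 2 stood far above the other 2 caps.

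Of the 4 falls, the largest without overlap was in Lenti6_1_573886, with 6.78, 2.15 and 2.1 TPM in FB_C and 8.16, 78.4 and 8.27 TPM in FB_S (-3.27 ± 0.965, edgeR adjusted p = 0.0243). It was -1.37 and not called without FB_S replicate 3, and the call was also lost without FB_C replicate 2 or 3. Without FB_C replicate 1 the difference was -4.09 and the call was kept (adjusted p = 0.0211). Lenti6_1_612516 measured 14.4, 6.82 and 32.3 TPM in FB_C and 72.1, 66.5 and 40.3 TPM in FB_S (-1.91 ± 0.582, adjusted p = 0.0283). Its call was lost without FB_C replicate 1 or 2 or FB_S replicate 2 or 3, and its value was -2.69 without FB_C replicate 3. In either direction, 22 members were called without FB_C replicate 2 (11.6%, background 6%), 26 without it and FB_L replicate 1 together (13.7%, background 6.77%), 19 without FB_S replicate 3 (10%, background 7.3%) and 25 without FB_S replicate 4 (13.2%, background 7.54%). No flowcell held both tissues, and with the flowcell as a covariate 1 member was called (0.526% higher, background 0.582%). On the 6 libraries alone 9 were called, all higher (4.74%, background 2.05%).

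In the young fruiting body the order of the tissues was the other way round. In YFB_C against YFB_S, 33 members were lower in the cap (17.4%, background 11.6%) and 2 were higher (1.05%, background 6.85%), with a median log2 difference of -0.63 (all genes, -0.08) and 141 members below 0. In total 18.4% of members were called in this fit, the same share as of all genes. Here the members differed from the background in their direction and not in their number. Every flowcell with a library of these groups held both tissues, and 35 members were lower with the flowcell as a covariate (18.4%, background 12.7%), while without YFB_C replicate 3 the count was 15 lower and 2 higher (7.89% lower, background 6.45%). Within flowcells the median log2 difference of members, from TPM, was -0.07 for YFB_C replicate 1 against YFB_S replicates 1 and 2. It was -0.31 for YFB_C replicates 2 and 3 against YFB_S replicate 3. These 2 values are not on the scale of the fit. On TPM the median of the 9969 genes with at least 5 TPM in every VM library was 0.10 higher in VM than in YFB_C. Against YFB_S it was 0.42 higher in VM. On the 6 libraries alone 52 were lower and 5 higher (27.4% lower, background 13.2%). In that fit the share called in either direction was also above that of all genes, as given below.

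Lenti6_1_376881, which also fell in the maturing stipe, measured 2.87, 1.31 and 1.82 TPM in the young cap, below each of its young stipe values given above (-2.82 ± 0.537, edgeR adjusted p = 0.00115). Lenti6_1_588919 measured 22.1, 5.72 and 3.77 TPM in the young cap and 70.8, 44.0 and 118 TPM in the young stipe (-3.24 ± 1.21, adjusted p = 0.0496). Its call was lost without YFB_C replicate 2 or 3 or any YFB_S library, and also with the replicate number as a block (-3.00, adjusted p = 0.0662), and its value was -4.33 without YFB_C replicate 1. The 2 members higher in the young cap were Lenti6_1_583696, with 26.9, 20.2 and 16.3 against 3.97, 2.25 and 3.8 TPM (2.34 ± 0.524, adjusted p = 0.00324), and Lenti6_1_580992, with 62.0, 29.6 and 34.4 against 9.78, 7.92 and 6.95 TPM (2.04 ± 0.558, adjusted p = 0.0103). Neither overlapped between cap and stipe, as their choice required. Both calls were kept in all alternatives tried, as was that of Lenti6_1_376881.

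**Figure D5:**
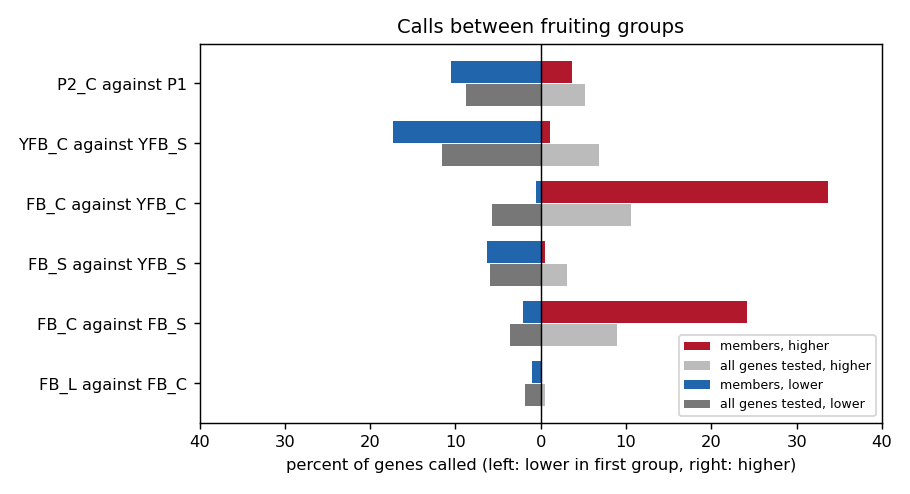
Percent of the 190 members and of all 13569 genes tested that were called higher (right) or lower (left) in the first group of each of 6 comparisons between fruiting groups. The members exceed all genes most clearly among the genes higher in FB_C than in YFB_C (33.7% and 10.6%) and in FB_S (24.2% and 8.88%).

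From the stage 1 primordium to the cap of the stage 2 primordium, members were called as often as other genes in the fit of all 27 libraries. On the 6 libraries compared alone they were called more often, as given at the end of this paragraph. In P2_C against P1, 7 members were higher (3.68%, background 5.23%) and 20 were lower (10.5%, background 8.81%), with a median log2 difference of -0.28 (all genes, -0.06). In either direction 14.2% of members and 14% of all genes were called. Lenti6_1_650651 fell from 19.4, 12.5 and 12.5 TPM in P1 to 1.80, 1.71 and 2.1 TPM in P2_C (-3.12 ± 0.574, edgeR adjusted p = 0.00110), and Lenti6_1_576767 from 13.7, 6.10 and 4.98 to 0.938, 1.70 and 1.14 TPM (-2.86 ± 0.549, adjusted p = 0.00147). Both stages were separate in both genes, as their choice required. Both calls were kept in all alternatives tried, the second at -2.18 without P1 replicate 1. The 2 largest rises were close to the threshold. Lenti6_1_574529 rose from 13.3, 31.7 and 62.9 to 291, 332 and 662 TPM (3.48 ± 1.23, adjusted p = 0.0492), and Lenti6_1_82749 from 3.34, 3.70 and 5.14 to 27.8, 36.7 and 26.8 TPM (2.79 ± 0.989, adjusted p = 0.0494). By the choice, the stages did not overlap in either gene. Either call was lost whichever P1 or P2_C library was left out, with values for Lenti6_1_574529 from 3.01 to 4.19. In place of 27, 15 members were called without P2_C replicate 1 (7.89%, background 8.6%), 11 without P2_C replicate 3 (5.79%, background 9.25%) and 55 on the 6 libraries alone (28.9%, background 17.8%).

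Lamellae and cap of the mature fruiting body were hardly told apart. In FB_L against FB_C, 0 members were higher (background 0.545%) and 2 were lower (1.05%, background 1.86%), with a median log2 difference of -0.34 (all genes, -0.01). In either direction the background was 2.41%. At an unadjusted p under 0.05, 35 members differed in either direction (18.4%, background 19.6%), and DESeq2 called 9, all lower (4.74%, background 4.84% in either direction). Both groups had a wide spread, with a median SD of members over their libraries of 0.60 in FB_L and 0.74 in FB_C, against 0.22 to 0.35 in the other fruiting groups. Lenti6_1_584306 measured 48.9, 30.5 and 5.32 TPM in FB_L, below its FB_C values (-4.43 ± 1.06, edgeR adjusted p = 0.0289). It was not called without FB_C replicate 3 (-2.09) or without FB_L replicate 3 (-3.93), and was -5.11 without FB_L replicate 1. Lenti6_1_531764 measured 1.53, 2.20 and 1.31 TPM in FB_L and 4.58, 2.99 and 3.07 TPM in FB_C (-1.31 ± 0.290, adjusted p = 0.0223), and its call was lost without FB_C replicate 1, FB_L replicate 1 or FB_L replicate 3. Without FB_C replicate 2, 6 members were higher and 7 lower (6.84%, background 4.39%), and without it and FB_L replicate 1 together 6 were lower (3.16%, background 3.23%). Without FB_C replicate 1, FB_L replicate 1 or FB_L replicate 2, 4 were lower (2.11%, background 2%, 2% and 5.18%), and without FB_L replicate 3, 1 was higher and 0 lower (0.526%, background 0.28%).

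Beyond expression, little set the members apart in what the files hold. Their gene length had a median of 1243 bases (range 291 to 3330), against 1216 over all genes. All reads mapped uniquely in 174 members, and the lowest unique share was 95.7%, so near-identical copies took few of their reads. Read numbers were ample in VM, where the lowest member had 44 reads and the median was 1386. In fruiting libraries the median was 77 reads, and 6.84% of values rested on fewer than 10. Pearson's r of each member's 9 group means with the members' median profile ran from 0.724 upward with a median of 0.948, which the choice of members largely sets. Among 9779 other genes with at least 5 TPM in every VM library, the most alike were Lenti6_1_655955 (r = 0.991) and Lenti6_1_656791 (r = 0.981). They measured 74.7, 50.7 and 33.5 TPM and 19, 6.83 and 7.92 TPM in VM, and up to 17.2 and 2.97 TPM in fruiting libraries.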

How the data were processed

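The authors deposited, for each of the 27 libraries, a table of gene length, total and unique read counts and TPM for each gene, per the file headers. They also deposited 1 table of log2 RPKM for 13805 genes, used only as an alternative, with 0 columns of other samples. Per the labels' protocols the RNA was polyA and the kit TruSeq RNA v2, with strand not stated, so overlapping antisense genes cannot be told apart. The submitters' processing notes name limma 3.18.13, edgeR 3.4.2 and R 3.0.2. The per-library tables carry the label CLC RNA-Seq, a mapping and counting program; its version, its settings and the genome build were not given in the sources used here.

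Members were found from the TPM. Tests used total counts, with edgeR 4.0.16 in R 4.3.3: filterByExpr at a minimum count of 10 (13569 genes, all 190 members among them; 2012 removed), TMM scaling, 9 group means over 27 libraries, 18 residual degrees of freedom, a common coefficient of biological variation of 0.343, two-sided, and Benjamini-Hochberg adjustment over all genes tested within each comparison. Each SE is the absolute log2 fold change divided by the root of its F. One estimate of spread served all groups, although VM, FB_C and FB_L spread more. The VM libraries, in which members spread more than other genes, thus entered the spread of comparisons between fruiting groups. Fits on the 6 libraries compared alone left them out. DESeq2 1.42.0 and limma-voom 3.58.1 were alternatives. The functions were tested on simulated data. The members, comparisons and the rule for named genes were chosen with earlier results of these data known. Named genes were extremes of level, difference and spread, and up to 2 rises and 2 falls of each comparison. Rises and falls were taken only among called members without overlap between the groups compared. The lack of overlap in these genes is therefore no result. Lists by function could not be made.

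Libraries of a group differed by more than counting noise (chi-square per degree of freedom from 42.9 to 339). What a replicate number shares is not stated. Same-numbered libraries deviated together by over 0.1 in every one of 3 pairs only in YFB_C and YFB_S (r = 0.369, 0.313 and 0.409 over 9942 genes). For FB_L and FB_C, r was -0.428, 0.446 and 0.392 in replicates 1, 2 and 3. For FB_S and YFB_S it was 0.263 and 0.137 in replicates 2 and 3, the only numbers they share. FB_S replicate 4 is alone in its number and on its flowcell, so fits with either term give it no weight.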

Additional observations from a re-analysis of the deposited data

Results flagged for a closer look

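Maturation of the cap and of the stipe differed in the interaction test described above for 59 members (31.1%, background 16.2%). All had the higher signed log2 change in the cap, and the difference itself was tested with edgeR. A higher signed change can come from a rise in the cap or a fall in the stipe. Among the 59 members, the change of Lenti6_1_584306 was higher in the cap than in the stipe by 6.38 ± 1.45 log2 units (SE, adjusted p = 0.00338). This value was 4.04 without FB_C replicate 3 and 8.37 without FB_S replicate 2, and with the flowcell as a covariate it was 5.86 (adjusted p = 0.0599). In Lenti6_1_383912 the change was higher in the cap by 5.94 ± 1.94 (adjusted p = 0.0250). This difference was 1.64 without FB_C replicate 2 (adjusted p = 0.457), and its call was also lost without YFB_C replicate 3, YFB_S replicate 3 or FB_S replicate 3. No cause was tested.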

How the results depend on the processing

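The number of genes chosen was 346, 109 and 65 at a difference of 1.5, 2.5 and 3 in place of 2, 125 at a pseudocount of 5 and 35 where every VM library had to lie 2 above every fruiting library. It ranged from 164 to 215 with 1 library left out. On TPM the median of the 9969 genes with at least 5 TPM in every VM library was 0.10 (YFB_C) to 0.55 (FB_S) log2 units higher in VM than in a fruiting group. That set was itself picked by VM values. With TMM-scaled TPM 146 genes were chosen, all members. Without the 2 most abundant members the share of TPM moved to 4.03% in VM and 0.200% in P2_C.

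Counts of called members in either direction, with their share of 190 and the share of all genes in the same fit, were as follows. DESeq2 gave 9 for FB_L against FB_C (4.74%, all genes 4.84%) and 20 for FB_S against YFB_S (10.5%, 10.7%). Limma-voom gave 22 for FB_C against FB_S (11.6%, 10.1%), 37 for FB_C against YFB_C (19.5%, 14.2%), 8 for FB_S against YFB_S (4.21%, 8.31%), 50 for the 8 fruiting groups (26.3%, 15.3%) and 36 for the interaction (18.9%, 25.1%). The replicate block, where numbers are not known to pair samples, gave 14 for FB_C against FB_S (7.37%, 5.82%), 1 for FB_L against FB_C (0.526%, 1.59%) and 4 for FB_S against YFB_S (2.11%, 5.22%). For YFB_C against YFB_S, whose numbers deviate together, the block gave 32 in place of 35 (16.8%, 18.2%), and it moved no other count past 1.5 times. The flowcell covariate gave 1 for FB_C against FB_S (0.526%, 0.988%), 4 for FB_C against YFB_C (2.11%, 2.56%), 0 for FB_L against FB_C (all genes 1.43%), 1 for FB_S against YFB_S (0.526%, 5.21%), 41 for the 8 groups (21.6%, 14.6%) and 13 for the interaction (6.84%, 9.6%). Without FB_C replicate 2 and FB_L replicate 1 together, the counts were 26 for FB_C against FB_S (13.7%, 6.77%), 37 for FB_C against YFB_C (19.5%, 9.37%), 6 for FB_L against FB_C (3.16%, 3.23%) and 20 for FB_S against YFB_S (10.5%, 10.7%). On the 6 libraries compared alone they were 55 for P2_C against P1 (28.9%, 17.8%), 10 for FB_C against YFB_C (5.26%, 4.07%), 28 for FB_S against YFB_S (14.7%, 11.7%), 57 for YFB_C against YFB_S (30%, 21.2%), 9 for FB_C against FB_S (4.74%, 3.06%) and 0 for FB_L against FB_C, where no gene was called. The cause of these moves was not tested.

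With 1 library left out the counts ranged from 19 to 62 for FB_C against FB_S, 24 to 79 for FB_C against YFB_C, 1 to 13 for FB_L against FB_C, 2 to 7 for FB_S against YFB_S, 11 to 20 for P2_C against P1, 17 to 36 for YFB_C against YFB_S, 148 to 166 for all 8 contrasts with VM, 73 to 87 for the 8 groups and 40 to 72 for the interaction. The share of all genes called also moved with the library left out, as given above for some of these fits. The ranges are therefore not read as changes of the members alone. For the 65 members with a difference of at least 3, shares of the 65 and of all genes follow each count. In all 8 contrasts with VM 63 were called (96.9%, 3%), which the choice fixed. FB_C against FB_S gave 21 (32.3%, 12.5%), FB_C against YFB_C 23 (35.4%, 16.3%) and FB_L against FB_C 0 (all genes 2.41%). FB_S against YFB_S gave 5 (7.69%, 8.93%), P2_C against P1 6 (9.23%, 14%) and YFB_C against YFB_S 11 (16.9%, 18.4%). The 8 groups gave 28 (43.1%, 17.5%) and the interaction 21 (32.3%, 27.3%). No named gene changed direction under any alternative run.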
